A study of Mus musculus with 11 samples.

Results

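Matrix metalloproteinases (MMPs) and their tissue inhibitors (TIMPs) were followed in orthotopic mouse pancreatic tumors through 10 genes, Mmp2, Mmp3, Mmp8, Mmp9, Mmp12, Mmp13, Mmp14, Timp1, Timp2 and Timp3, among the 54232 genes of the raw count table. They were chosen by name, with earlier results of these data known. They were set out as enzymes known mainly from stromal cells (Mmp2 and Mmp14) and enzymes known mainly from myeloid cells (Mmp8 and Mmp9). The rest were 3 other secreted enzymes (Mmp3, Mmp12 and Mmp13) and 3 inhibitors. Bulk RNA was sequenced from 11 tumors, 1 piece per animal, to ask how loss of the kinase PKN2 from the host alters the tumor.

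The KO group held 6 tumors (Pkn2KO replicates A to F) from RosaCreERT heterozygous, Pkn2 fl/fl hosts, and the WT group held 5 tumors (Pkn2Wt replicates A to E) from RosaCreERT heterozygous, Pkn2 +/+ hosts. All hosts were adult female C57BL/6 mice given tamoxifen, and all received 1000 TB32048 cells with Matrigel in the pancreas. TB32048 is a pancreatic carcinoma line from a female mouse, and it kept Pkn2 intact in both groups. The Rosa26 locus drives the inducible Cre throughout the host, so the model deletes Pkn2 from immune, endothelial and other host cells as well as from stellate cells.

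MMPs are zinc-dependent proteases that are made as inactive precursors and, once activated, cut collagen, gelatin, elastin, laminin and many signaling proteins of the extracellular matrix. TIMPs bind the active site of MMPs and block it, so that matrix turnover depends on both sides. In pancreatic carcinoma, with its dense collagenous stroma, fibroblasts, macrophages, neutrophils and carcinoma cells all contribute members of the family. RNA counts measure transcripts only, not precursor processing or protease activity.

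Of the 10 genes, 4 lie in 1 gene cluster on mouse chromosome 9, where 10 MMP genes of the lists used here occupy 427.1 kb (GRCm38, 7272514 to 7699585). Mmp13, Mmp12, Mmp3 and Mmp8 lie in this order on the plus strand, with Mmp1b, Mmp1a and Mmp10 between them. The 60 bases before the RefSeq transcription start are shown for these 4 genes because they share the cluster while the RNA level of Mmp8 did not follow that of the other 3, as described further on. Capitals mark TGACTCA, the core site of AP-1 transcription factors, or its reverse complement.
Mmp13, chr9:7272454-7272513, plus strand, GRCm38.p6: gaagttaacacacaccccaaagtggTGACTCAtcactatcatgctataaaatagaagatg
Mmp12, chr9:7347314-7347373, plus strand, GRCm38.p6: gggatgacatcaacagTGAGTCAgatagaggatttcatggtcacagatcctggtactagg
Mmp3, chr9:7445762-7445821, plus strand, GRCm38.p6: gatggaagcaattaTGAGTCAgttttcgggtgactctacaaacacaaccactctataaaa
Mmp8, chr9:7558369-7558428, plus strand, GRCm38.p6: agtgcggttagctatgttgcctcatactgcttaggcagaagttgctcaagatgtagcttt

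The site began 35 bases before the start in Mmp13, 44 bases before it in Mmp12 and 46 bases before it in Mmp3. For Mmp12, RefSeq gave 2 starts, and the one shown was picked because its window holds the site. RefSeq windows were matched for 8 of the 10 genes, all except Mmp2 and Mmp9. On either strand of the 250 bases upstream, TGACTCA was found for 3 of these 8 genes, Mmp3, Mmp12 and Mmp13, and in 4.46% of the 32851 windows of the whole table. Within the chromosome 9 cluster it was found for 7 of 10 genes, the other 4 being Mmp1a, Mmp1b, Mmp7 and Mmp10.

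A total of 9 motifs were searched, chosen after the RNA values were known. TATAAA was found for 2 of the genes (12.4% of all windows), GGGCGG for 4 (32.7%), AGGAAGT for 4 (7.69%) and TGACATCA for 1 (2.93%). TTCCTGGAA (0.651% of all windows), the NF-kappaB consensus (0.14%), TTTGCGAA (0.177%) and TTGCGCAA (0.164%) were found for 0. TGACTCA was singled out for display after this search, and a match is a description of letters in a window, not of a bound site. Whether any of these motifs goes with the RNA levels was not tested.

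Before the results, 1 gene and 3 libraries need mention. Pkn2 itself was at 96.6 ± 9.34 CPM (TMM-scaled counts, with all libraries brought to the same total; SD, n = 6) in KO tumors and 96.7 ± 34.6 CPM (SD, n = 5) in WT tumors, which does not check the labels because the carcinoma cells carry the gene in both groups. Total counts ranged from 16294128 to 31121422. WT replicates A, B and C stood apart: their deviation from the mean log2 CPM fell with exon length (Spearman's rho across genes -0.496, -0.446 and -0.171, against values above 0 in the other 8 tumors), and ribosomal RNA took 1.31%, 6.39% and 1.40% of their counts, against 0.241% to 0.765% elsewhere. These 3 libraries are all WT, so genotype and this library property cannot be fully told apart, and values without them are given beside several results.

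Per kilobase of exon, Timp1 and Timp2 were the most abundant transcripts of the set, and Timp3 ranked below the stromal enzymes. Over all 11 tumors Timp1 averaged 430 CPM per kb, Timp2 154 and Timp3 45.9, while the enzymes ran from Mmp2 at 85.8 and Mmp14 at 61.8 through Mmp13 at 30.2, Mmp9 at 20.5, Mmp3 at 17.9 and Mmp12 at 12.1 to Mmp8 at 5.56. In this order, Timp1 exceeded Timp2 in 10 of 11 tumors, Timp2 exceeded Mmp2 in 11 of 11 and Mmp14 exceeded Timp3 in 10 of 11, each by a mean log2 difference larger than its SD. The other neighbors, Mmp2 with Mmp14 and each pair from Timp3 down to Mmp8, did not differ beyond their spread over all 11 tumors. Within genotypes some did. In KO tumors, Mmp2 exceeded Mmp14 and Timp3 exceeded Mmp13 in 6 of 6, and in WT tumors Mmp9 exceeded Mmp8 in 5 of 5, each beyond its spread. Mmp14 did not exceed Timp3 beyond its spread in KO tumors (mean log2 difference 0.28, SD 0.31).

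**Figure D1:**
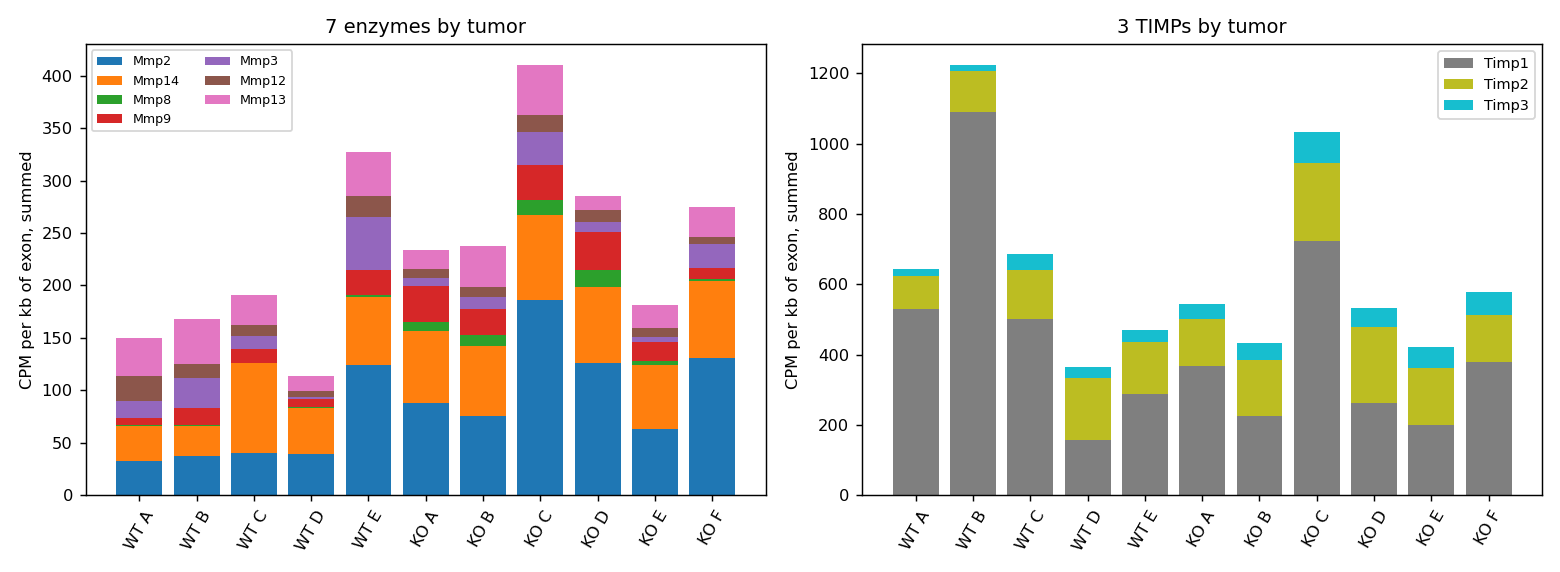
Stacked levels of the 7 enzymes (left) and the 3 TIMPs (right) in each WT and KO tumor, in CPM per kb of exon; each bar is 1 tumor. Mmp2 and Mmp14 made up 59.998% to 74.4% of the enzyme sum in KO tumors and 39.2% to 73.2% in WT tumors, and the TIMP sum was highest in WT replicate B.

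The summed level of the 7 enzymes was 270 ± 77.4 CPM per kb in KO tumors (SD, n = 6) and 190 ± 81.6 in WT tumors (SD, n = 5). The summed level of the 3 TIMPs was 591 ± 226 CPM per kb in KO tumors and 678 ± 331 in WT tumors. The ratio of the first sum to the second was 0.469 ± 0.0621 in KO tumors, from 0.396 to 0.549, and 0.331 ± 0.214 in WT tumors, from 0.138 in replicate B to 0.695 in replicate E. The groups therefore overlapped in this ratio, whose highest and lowest values were both WT. With WT replicates A, B and C left out, an alternative added after the data had been seen, the WT mean was 417 for the TIMP sum and 0.504 for the ratio, so both differences turned direction. The difference in TIMP sum also turned without WT replicate B alone, where the WT mean was 541. These sums are descriptions over a chosen list and were not tested.

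Comparing KO with WT tumors in the edgeR quasi-likelihood fit over all genes, 0 of the 10 genes passed an adjusted p of 0.05, a level that 3 of 16536 tested genes (0.0181%) passed. At an unadjusted p under 0.05, 4 of 10 passed, Mmp2, Mmp8, Mmp9 and Timp3, all higher in KO tumors, where 24% of all tested genes passed in either direction and 8.57% as higher in KO. The median log2 fold change was 0.40 over the 10 genes and -0.026 over all tested genes. DESeq2, which called 8% of its tested genes, called 2 of the 10, Mmp8 and Timp3. Mmp8 was the only 1 of the 10 whose groups did not overlap in CPM, a property of 3.6% of all tested genes.

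**Figure D2:**
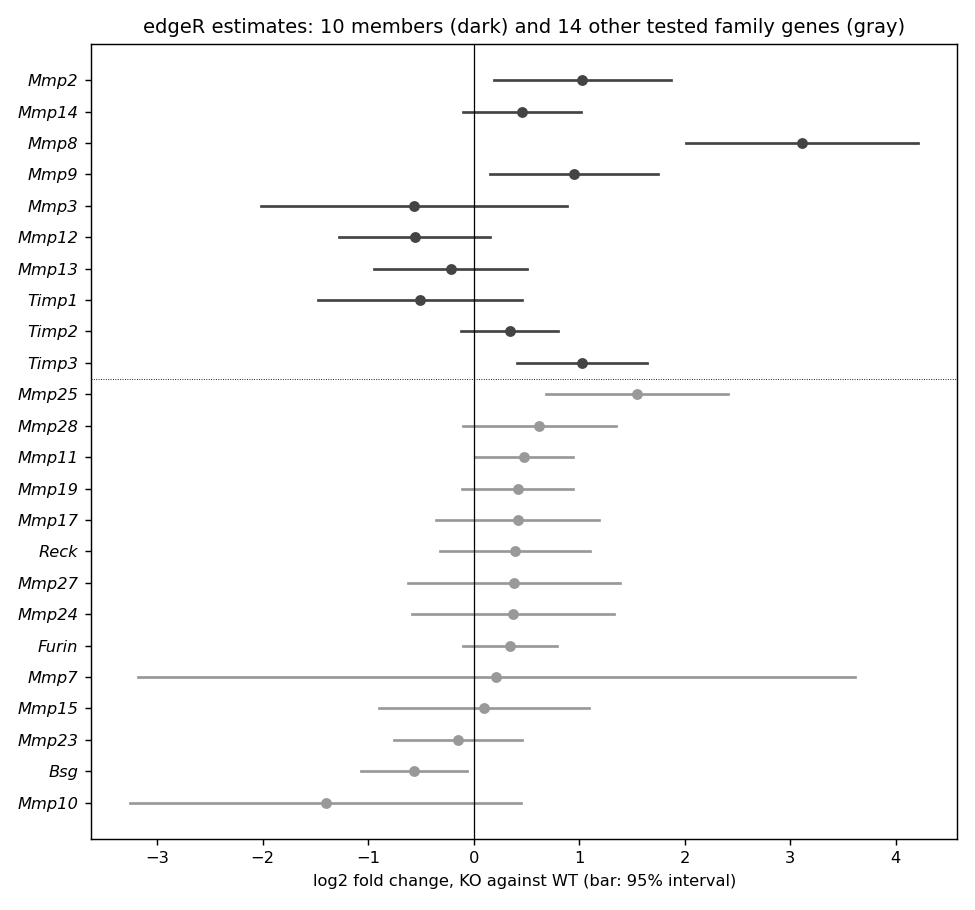
log2 fold change of KO against WT tumors from edgeR, with 95% intervals, for the 10 genes (dark) and the 14 other tested family genes (gray). The intervals of Mmp2, Mmp8, Mmp9 and Timp3 lie above 0, and that of Mmp8 is the farthest from it, at 2.01 to 4.21.

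Of the stromal enzymes, Mmp2 encodes gelatinase A, which cuts basement membrane collagen and gelatin. Mmp2 (ENSMUSG00000031740, chromosome 8, 92827291 to 92853420) was at 109, 125, 137, 134 and 417 CPM in WT replicates A to E. In KO tumors it had a lowest value of 214, a median of 362 and a highest value of 627 CPM. All 6 KO tumors lay above WT replicates A to D, and WT replicate E lay within the KO range. The log2 fold change was 1.03 (SE 0.39, 95% interval 0.19 to 1.87, edgeR adjusted p = 0.142). Without WT replicate E it was 1.58 (adjusted p = 0.0274), whereas with WT replicates A, B and C left out it was 0.45 (adjusted p = 0.655).

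Mmp14 encodes a membrane-anchored collagenase that also activates the MMP2 precursor at the cell surface. Mmp14 (ENSMUSG00000000957, chromosome 14, 54431612 to 54445364) was at 202, 171, 507, 260 and 391 CPM in WT replicates A to E, and in KO tumors at 361, 418 and 487 CPM (lowest, median and highest). KO tumors were close to each other, with a coefficient of variation of 10.1% against 45.8% in WT tumors, and the highest tumor was WT replicate C. For Mmp14, KO against WT gave 0.46 on the log2 scale (SE 0.26, 95% interval -0.10 to 1.01, edgeR adjusted p = 0.294), so a fold of 0.931 to 2.02 lies within its error.

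Of the myeloid enzymes, Mmp8 encodes neutrophil collagenase, which is stored in neutrophil granules and cuts fibrillar collagen. Mmp8 (ENSMUSG00000005800, chromosome 9, 7558456 to 7568485) was at 2.47, 2.75, 1.62, 1.53 and 4.58 CPM in WT replicates A to E, from 33 to 155 counts per library. In KO replicates A to F it was at 22.7, 24.7, 33.7, 38.3, 11.01 and 4.92 CPM, from 122 to 969 counts. Every KO tumor lay above every WT tumor, but KO replicate F was only just above WT replicate E. The log2 fold change was 3.11 (SE 0.51, 95% interval 2.01 to 4.21), a fold of 8.65, with an unadjusted p of 3.7e-05 and an adjusted p of 0.0607 in edgeR.

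The log2 fold change of Mmp8 was between 2.88 and 3.44 under the 18 alternatives run, while the call moved. It passed the threshold in edgeR without KO replicate F (adjusted p = 0.00993), without WT replicate D (0.0442), without WT replicate E (0.0251), with no filter on low counts (0.0224) and with an offset for exon length (0.0352), and in DESeq2 (adjusted p = 2.02e-08). It missed the threshold under the other 12, with adjusted p-values up to 0.149.

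Mmp9 encodes gelatinase B, which neutrophils carry in granules and macrophages also secrete. Mmp9 (ENSMUSG00000017737, chromosome 2, 164940780 to 164955850) was at 23.7, 58.7, 46.3, 28.9 and 82.3 CPM in WT replicates A to E. Its KO values were 36.9 (lowest, replicate F), 104 (median) and 128 CPM (highest). KO replicates A, B, C and D lay above all WT tumors, and KO replicates E and F lay within the WT range. For Mmp9, KO against WT gave 0.95 on the log2 scale (SE 0.37, 95% interval 0.15 to 1.75, edgeR adjusted p = 0.150). The value was 0.78 to 1.24 with 1 tumor left out and 0.75 with WT replicates A, B and C left out (edgeR adjusted p = 0.483). Mmp9 missed the threshold under every alternative. Both myeloid enzymes thus had their lowest KO value in replicate F.

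**Figure D3:**
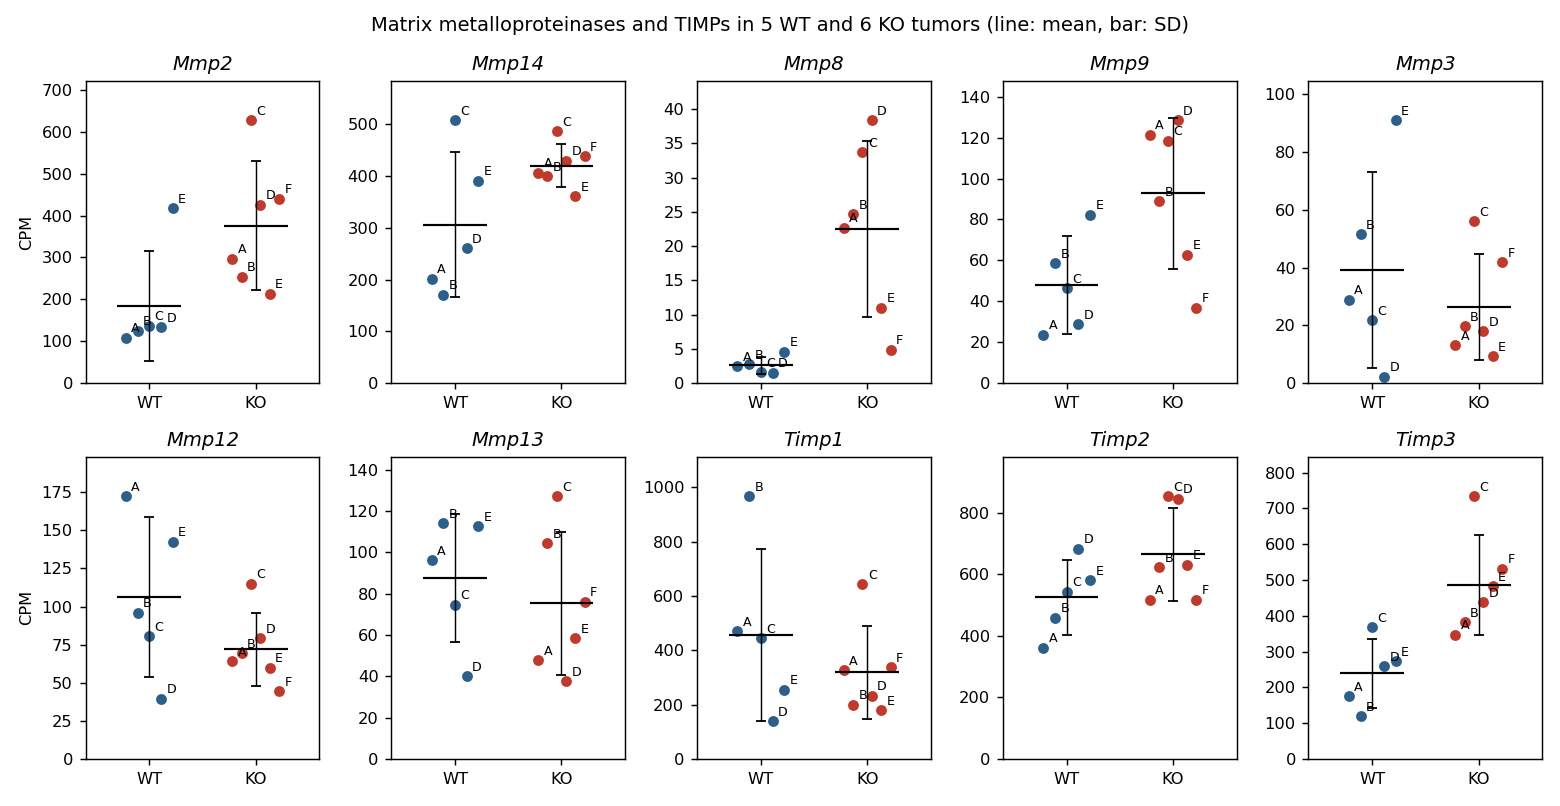
CPM of each gene in every tumor, with replicate letters; horizontal lines are group means and bars are SDs (5 WT and 6 KO tumors). Mmp8 is the only panel without overlap, at 1.53 to 4.58 CPM in WT and 4.92 to 38.3 CPM in KO tumors.

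The 3 other secreted enzymes had fitted values below 0, none past an unadjusted p of 0.05. Mmp3 encodes a stromelysin, which cuts proteoglycans and activates other MMP precursors. Mmp3 (ENSMUSG00000043613, chromosome 9, 7445822 to 7455975) was at 28.9, 51.6, 21.8, 2.31 and 91.0 CPM in WT replicates A to E, a 39.4-fold range within 1 genotype. Its KO values were 9.26, 18.9 and 56.1 CPM (lowest, median and highest), all inside the WT range. The log2 fold change was -0.57 (SE 0.67, 95% interval -2.02 to 0.88, edgeR adjusted p = 0.623), and without WT replicate E it was 0.023.

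Mmp12 encodes macrophage elastase. Mmp12 (ENSMUSG00000049723, chromosome 9, 7344381 to 7369499) was at 172, 96.0, 80.6, 39.6 and 143 CPM in WT replicates A to E and at 44.6, 66.8 and 115 CPM in KO tumors (lowest, median and highest). WT tumors held both the highest and the lowest value. For Mmp12, KO against WT gave -0.56 on the log2 scale (SE 0.33, 95% interval -1.27 to 0.15, edgeR adjusted p = 0.310). An exon of Mmp12 overlaps one of the antisense gene Mmp1b, which had at most 2 counts in any library.

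Mmp13 encodes the main interstitial collagenase of rodents. Mmp13 (ENSMUSG00000050578, chromosome 9, 7272514 to 7283331) was at 96.3, 114, 74.6, 40.03 and 113 CPM in WT replicates A to E and at 37.5, 67.3 and 127 CPM in KO tumors (lowest, median and highest). The groups covered nearly the same range. The log2 fold change was -0.22 (SE 0.33, 95% interval -0.94 to 0.51, edgeR adjusted p = 0.716). Within the chromosome 9 cluster, the fitted value of Mmp8 was therefore above 0 and those of Mmp3, Mmp12 and Mmp13 below it, and these differences between genes were not tested.

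Among the inhibitors, Timp3 encodes the TIMP that binds to the matrix itself and also inhibits ADAM proteases. Timp3 (ENSMUSG00000020044, chromosome 10, 86300372 to 86349506) was at 175, 119, 368, 259 and 274 CPM in WT replicates A to E. Its KO values were 347 (lowest), 460 (median) and 734 CPM (highest). In 5 of 6 KO tumors it was above the highest WT tumor, and KO replicate A was below WT replicate C. The log2 fold change was 1.02 (SE 0.29, 95% interval 0.41 to 1.64, edgeR adjusted p = 0.0939). It passed the threshold in edgeR without WT replicate E (1.08, adjusted p = 0.0484) and in DESeq2 (adjusted p = 0.0179), and missed it under all other alternatives. With ribosomal RNA share as covariate it was 0.77 (edgeR adjusted p = 0.304). With WT replicates A, B and C left out it was 0.87 (edgeR adjusted p = 0.166). Exons of Timp3 overlap those of the antisense gene Syn3, and since the strand setting of the counting is not given in the sources used here, reads of that overlap are uncertain. Timp3 has the longest exon sequence of the 10 genes (8144 bases) and was lowest in WT replicates A and B, and with an offset for exon length its log2 fold change was 0.85 (adjusted p = 0.0918).

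Timp1 encodes a soluble TIMP induced by inflammatory signals. Timp1 (ENSMUSG00000001131, chromosome X, 20870166 to 20874735) was at 471, 968, 445, 140 and 256 CPM in WT replicates A to E and at 178, 280 and 643 CPM in KO tumors (lowest, median and highest). WT tumors held both extremes. For Timp1, KO against WT gave -0.51 on the log2 scale (SE 0.45, 95% interval -1.48 to 0.46, edgeR adjusted p = 0.498). Timp1 has the shortest exon sequence of the set (888 bases) and was highest among WT tumors in replicates A, B and C, and its direction turned with those 3 left out (0.70), with ribosomal RNA share added as covariate (0.18) and with the offset for exon length (0.077).

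Timp2 encodes a soluble TIMP that both blocks MMPs and bridges the MMP2 precursor to MMP14. Timp2 (ENSMUSG00000017466, chromosome 11, 118301069 to 118355740, minus strand) was at 361, 459, 544, 683 and 581 CPM in WT replicates A to E and at 517, 628 and 854 CPM in KO tumors (lowest, median and highest). The 2 highest tumors were KO. For Timp2, KO against WT gave 0.34 on the log2 scale (SE 0.21, 95% interval -0.12 to 0.80, edgeR adjusted p = 0.340).

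A further 20 genes were listed as the rest of the family and its partners, of which 14 passed the filter on low counts. At the adjusted level 0 of 14 passed. At an unadjusted p under 0.05, 2 were higher and 1 lower in KO tumors. Of all tested genes, 24% passed this level in either direction and 8.57% as higher in KO. Mmp25, a membrane-anchored MMP of leukocytes, was at 3.17, 1.75, 1.47, 3.49 and 6.21 CPM in WT replicates A to E and at 7.27, 7.68 and 18.4 CPM in KO tumors (lowest, median and highest). Its groups did not overlap in CPM, a property of 3.6% of all tested genes. Its log2 fold change was 1.55 (SE 0.40, edgeR adjusted p = 0.0904), and it passed in DESeq2 (adjusted p = 0.00468) and in edgeR without WT replicate E (adjusted p = 0.0279). It missed the threshold under all other alternatives. Without KO replicate F, its highest tumor, the log2 fold change was 1.25 (edgeR adjusted p = 0.165). With WT replicates A, B and C left out it was 0.97 (edgeR adjusted p = 0.292).

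Mmp11, a stromelysin of stromal cells, was fitted 0.47 log2 units higher in KO tumors (SE 0.21, edgeR adjusted p = 0.200). Bsg, which encodes the MMP inducer basigin, had a log2 fold change of -0.57 with an SE of 0.23 (adjusted p = 0.164), and of 0.063 with WT replicates A, B and C left out. Furin, a protease that activates the MMP14 precursor, had one of 0.34 (SE 0.21, adjusted p = 0.321) and Mmp10 one of -1.40 (SE 0.86, adjusted p = 0.327), which was -0.53 without WT replicate E. Mmp1a, Mmp1b, Mmp16, Mmp20, Mmp21 and Timp4 did not pass the filter, and Mmp21 had 0 counts in every library.

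To place these levels beside the cell types of the tumor, 6 lists of marker genes were compared between genotypes by exact permutation of the 11 tumors, two-sided, adjusted over the 6 lists. Mean log2(CPM + 1) of 6 neutrophil markers was 6.10 in KO and 4.65 in WT tumors (difference 1.45, exact permutation test, adjusted p = 0.0346), and that of 6 neutrophil granule genes was 6.44 and 2.62 (difference 3.82, adjusted p = 0.0325 by the same test). Macrophage markers differed by 0.44 (exact permutation test, adjusted p = 0.0325). Fibroblast markers differed by 0.45 (adjusted p = 0.251), endothelial markers by 0.42 (adjusted p = 0.169) and epithelial markers by -0.49 (adjusted p = 0.251) in the same exact test. The neutrophil call held without KO replicate E or F or WT replicate B and was lost without any 1 of the other 8 tumors (adjusted p up to 0.0857, exact permutation), and the granule and macrophage calls were lost without WT replicate C or D (adjusted p = 0.0714 for both, exact permutation). In bulk tumor RNA, a change in the number of cells of a type and a change in RNA per cell cannot be told apart.

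The summed level of the 6 neutrophil markers ran from 268 to 2234 CPM in KO and from 157 to 1006 CPM in WT tumors, and that of the 6 granule genes from 131 to 1702 CPM in KO and from 40.1 to 171 CPM in WT tumors. KO replicate F, lowest of the KO tumors in Mmp8 and Mmp9, was also the lowest KO tumor in both lists. The granule gene Elane had 0 counts in WT replicate C, and all other markers had at least 1 count in every tumor. The lowest counts of the neutrophil marker Ly6g (1) and the granule gene Mpo (2) lay under the floor of 3 counts. Epithelial markers summed to 2443 to 7917 CPM and fibroblast markers to 1534 to 6176 CPM over the 11 tumors, so carcinoma and stromal transcripts were both present.

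**Figure D4:**
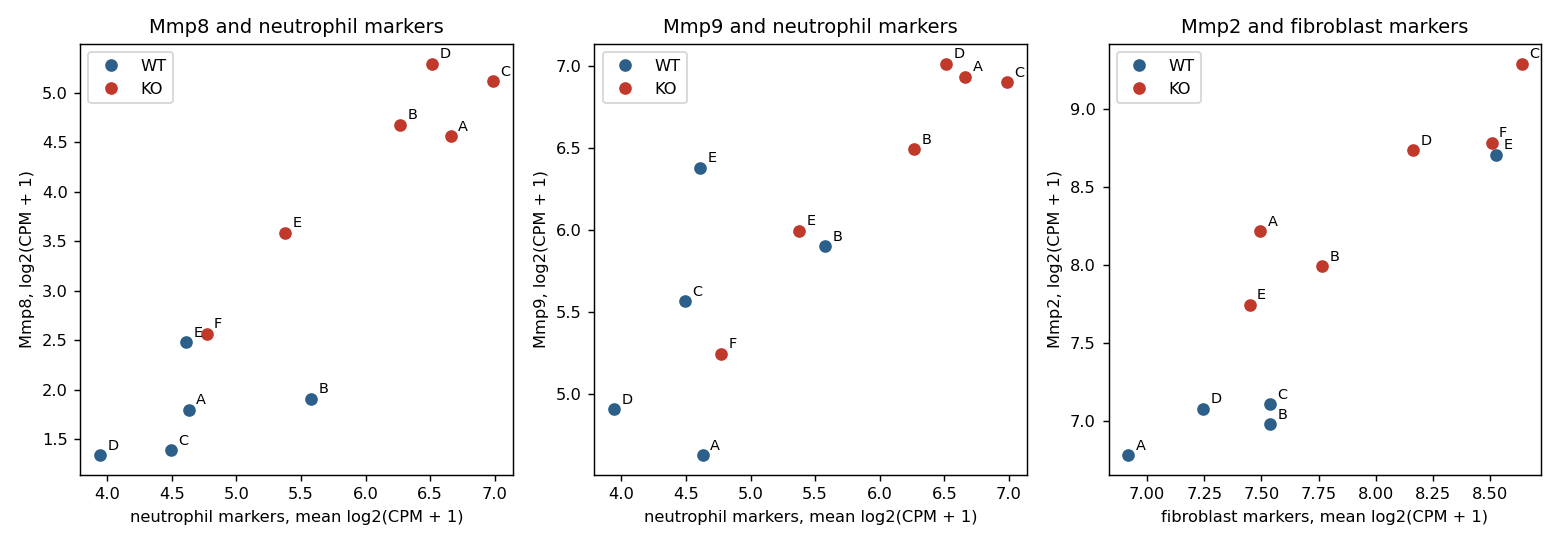
log2(CPM + 1) of Mmp8 and Mmp9 against the mean log2(CPM + 1) of 6 neutrophil markers, and of Mmp2 against that of 6 fibroblast markers, in 5 WT and 6 KO tumors with replicate letters. Pearson's r over the 11 tumors is 0.919, 0.856 and 0.905.

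Each of the 10 genes was correlated over the 11 tumors with 4 marker lists, which gave 40 relations, and 3 passed an adjusted p of 0.05 for Pearson's r. Mmp8 went with neutrophil markers (r = 0.919, permutation p = 0.00037, adjusted 0.0074; Spearman's rho = 0.882, permutation p = 0.0007). Mmp9 also went with neutrophil markers (r = 0.856, permutation p = 0.00118, adjusted 0.0157; rho = 0.791, permutation p = 0.00523). Mmp2 went with fibroblast markers (r = 0.905, permutation p = 0.00023, adjusted 0.0074; rho = 0.827, permutation p = 0.00257). By Spearman's rho 6 relations passed, these 3 and those of Mmp2 (rho = 0.80), Mmp8 (rho = 0.782) and Timp3 (rho = 0.782) with macrophage markers (permutation test, adjusted p = 0.044 for each). Within genotypes, Pearson's r with macrophage markers was 0.471 for Mmp2, -0.219 for Mmp8 and 0.0102 for Timp3.

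Because genotype separates some of these levels, the relations were computed again on deviations from the genotype means. Mmp2 with fibroblast markers gave r = 0.936 (permutation test, adjusted p = 0.0168), Mmp8 with neutrophil markers 0.832 (permutation test, adjusted p = 0.123) and Mmp9 with neutrophil markers 0.765 (permutation test, adjusted p = 0.123). Without the 2 tumors farthest from the median marker level, r was 0.854, 0.885 and 0.795 in the same order (exact permutation, adjusted p = 0.0531, 0.0531 and 0.119), so that over the remaining 9 tumors r was nearly as large and 0 of the 3 passed. Mmp14, named as stromal, gave r = 0.614 with fibroblast markers (permutation test, adjusted p = 0.306), and Mmp12, the macrophage elastase, r = -0.11 with macrophage markers (permutation test, adjusted p = 0.882).

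The 10 genes were also correlated with each other, a family of 45 pairs that was added after the other values had been seen. Mmp14 with Timp3 gave r = 0.882 (permutation p = 0.00043, adjusted 0.0193; rho = 0.736, permutation p = 0.0128, adjusted 0.104), Mmp8 with Mmp9 0.855 (permutation p = 0.00158, adjusted 0.0355; rho = 0.864, permutation p = 0.0012, adjusted 0.0391) and Mmp3 with Mmp13 0.788 (permutation p = 0.00268, adjusted 0.0402; rho = 0.845, permutation p = 0.00174, adjusted 0.0391). On deviations from the genotype means r was 0.838, 0.829 and 0.794 (permutation test, adjusted p = 0.0865 for each), and without the 2 tumors farthest from the median it was 0.598, 0.775 and 0.719, with 0 of the 45 pairs past the threshold in either case. Mmp12 gave r = 0.673 with Mmp3 and 0.628 with Mmp13 (permutation test, adjusted p = 0.119 and 0.141). Mmp8 gave 0.0736, -0.0027 and -0.0999 with Mmp3, Mmp12 and Mmp13. On deviations from the genotype means, Mmp8 gave 0.250, 0.637 and 0.155 with the same 3 genes (permutation test, adjusted p = 0.716, 0.0901 and 0.917). There, Mmp12 gave 0.698 with Mmp3 and 0.607 with Mmp13 (permutation test, adjusted p = 0.384 for both).

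**Figure D5:**
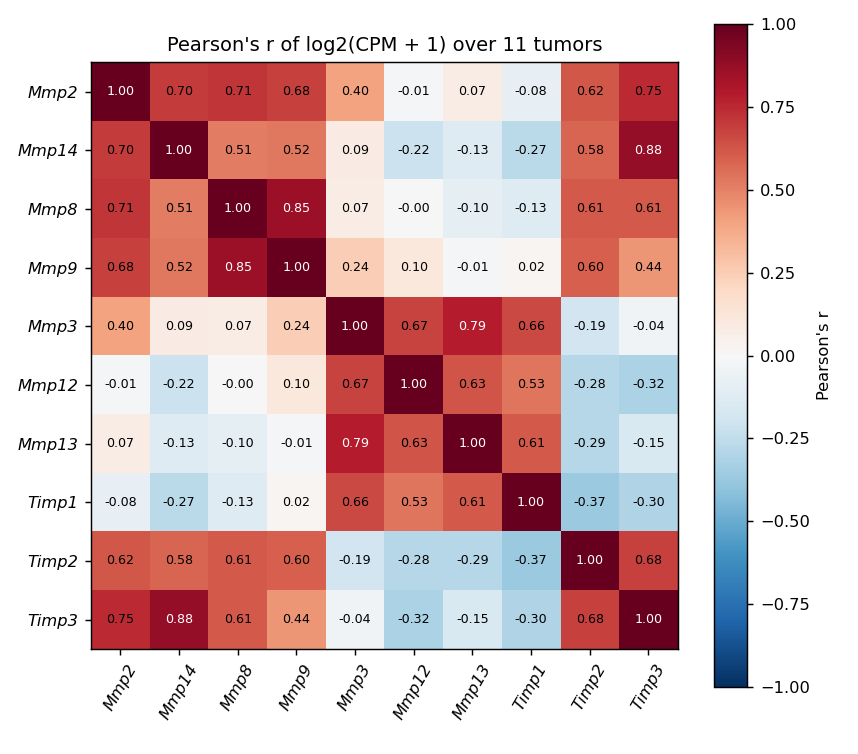
Pearson's r of log2(CPM + 1) between each pair of the 10 genes over 11 tumors, from -1 (blue) to 1 (red). Mmp8 and Mmp9 (0.855), Mmp14 and Timp3 (0.882) and Mmp3 and Mmp13 (0.788) are the 3 pairs past an adjusted p of 0.05 for Pearson's r.

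Among 14898 tested genes with a mean of at least 1 CPM, the genes whose log2(CPM + 1) was most like that of each gene over the 11 tumors were listed by Pearson's r, as a description. For Mmp8 they were Chil3 (0.973), Itgb2l (0.969) and Ighv6-3 (0.969), and for Mmp9 Ighg1 (0.929), Ceacam10 (0.927) and Adamts16 (0.919). For Mmp2 they were Fgf2 (0.979), P3h1 (0.968) and Aebp1 (0.967), and for Mmp14 Cpeb2 (0.964), Zc3h13 (0.954) and Atp6ap1 (0.952). For Timp3 they were Prnp (0.946), Clstn1 (0.932) and Akap5 (0.930), for Timp2 Egflam (0.933), Slc44a2 (0.913) and Tgfbr1 (0.896), and for Timp1 Hist1h2ap (0.945), Hoxb2 (0.938) and Gpx7 (0.931). For Mmp3 they were Snhg11 (0.920), Abi3bp (0.918) and Kctd15 (0.904), for Mmp12 Angptl4 (0.912), Mier2 (0.897) and Fosl1 (0.844), and for Mmp13 Sfrp4 (0.884), Ccn5 (0.870) and 4833407H14Rik (0.862).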

How the data were processed

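RNA was taken from 1 piece of each tumor. Per the study's methods and the submitters' processing notes, libraries were made with a directional kit and sequenced in pairs, and reads were trimmed with Trimmomatic, aligned to mm10 by strand with HISAT2 (version 2.1.0), and uniquely aligned reads were counted over exons with HTSeq (version 0.11.2), whose strand setting is not given in the sources used here. The authors deposited raw counts per gene, which were used here, and a table of normalised values, which was not used here. Of 54232 identifiers, 54079 matched a symbol in GENCODE M21.

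Samples were grouped by their titles. The 16536 genes that passed filterByExpr were tested with the edgeR quasi-likelihood test (version 4.0.16, R 4.3.3) with TMM and Benjamini-Hochberg adjustment, without covariates, and the SE is the absolute log2 fold change over the square root of F. The script was tested on simulated data. CPM uses TMM-scaled totals, and log2 values of CPM carry a pseudocount of 1. Depth was 16294128 to 31121422 counts, where 3 counts correspond to 0.0964 to 0.184 CPM, which covers counting error only. Every pair of libraries differed by more than sampling noise (lowest chi-square per degree of freedom 33.9), so each counted as a separate sample. Alternatives were DESeq2 (version 1.42.0), other scaling, filter, block, covariate, length offset and left-out tumors.

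Marker lists were compared by exact permutation over 462 assignments (smallest possible p 0.00216), and correlations by 100000 permutations. Genes named were all 10 genes, family genes at an unadjusted p under 0.05 or among the 3 highest per kb, and the 3 genes most like each of the 10. The genes and lists were chosen with earlier results of these data known. P-values measure the spread between these animals.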

Additional observations from a re-analysis of the deposited data

Results flagged for a closer look

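Of 34 groups of values examined, 1 held a tumor far from the others, where chance alone would give about 1.7. Mmp2 in WT replicate E was at 8.71 log2(CPM + 1), against 6.78 to 7.11 in the other 4 WT tumors, so the gap took 0.830 of the group's range (limit 0.71 for 5 samples). The same tumor had the highest summed fibroblast markers of the 11, at 6176 CPM, and whether the markers account for its Mmp2 level was not tested.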

How the results depend on the processing

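The 10 genes were fitted again under 18 alternatives. The count called higher, 0 in the edgeR fit, was 1 with no filter, 2 in DESeq2 and 1 with the length offset, and 0 to 3 with 1 tumor left out (3 without WT replicate E: Mmp2, Mmp8 and Timp3). The count higher at an unadjusted p under 0.05, 4 at first, was 2 with WT replicates A, B and C left out and 2 to 4 with 1 tumor left out, and the count lower, 0 at first, was 1 with the length offset and 0 to 1 with 1 tumor left out. Timp1 turned to 0.18 with the ribosomal RNA covariate, 0.077 with the length offset and 0.70 with WT replicates A, B and C left out. Bsg turned to 0.063 with those 3 left out, and Mmp3 ranged from -0.94 to 0.023 with 1 tumor left out. For the summed TIMPs, KO minus WT was -87.1 CPM per kb, 173 with those 3 left out and -176 to 49.1 with 1 tumor left out, and for the enzyme to TIMP ratio 0.138 and -0.034 with those 3 left out. The number of marker relations past the threshold, 3, was 1 on deviations from the genotype means and 0 without the 2 farthest tumors. From summed CPM, neutrophil markers differed by 1.81 (adjusted p = 0.0844) and macrophage markers by 0.25 (0.240), in exact permutation tests.

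With 1 tumor left out, the difference in marker level was 1.27 to 1.71 for neutrophil, 3.55 to 4.42 for granule, 0.35 to 0.50 for macrophage, 0.29 to 0.69 for fibroblast, 0.30 to 0.62 for endothelial and -0.87 to -0.29 for epithelial lists; endothelial and epithelial lists passed in 1 case each (without WT replicate E and without WT replicate B, adjusted p = 0.0286 for both, exact permutation). Except where named here, the causes were not tested.

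The tumors come from different animals, and the labels state no pairing by replicate letter. Deviations of same-lettered tumors correlated by -0.135 to 0.118, and 1 of 5 letters matched best with itself. With so few letters, these values cannot exclude a pairing. With the replicate block, 0 of the 10 genes were called, and 4 were higher at an unadjusted p under 0.05. In WT tumors Mmp8 had the lowest counts of the 10 genes, 33 to 155 a library, above the floor of 3 counts.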
